A study of Mus musculus with 13 samples.

Results

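Runx1, Runx2, Runx3, Twist1, Twist2, Snai1, Snai2, Zeb1, Zeb2 and Prrx1 encode transcription factors that shape mesenchymal cells, and their levels were followed in lung fibroblasts of mice during scarring and regrowth. The 10 genes were taken by symbol from a table of 43346 genes, and all 10 were found. Fibroblasts were compared 30 days after bleomycin (n = 5), 14 days after bleomycin (n = 3), 14 days after pneumonectomy (n = 3) and after sham treatment (n = 2). Bleomycin is toxic to the lung and provokes fibrosis, whereas pneumonectomy takes out lung tissue and provokes growth of what is left. The series describes all cells as Col1a1-GFP fibroblasts, in which a promoter of a collagen gene drives a green fluorescent protein, which marks cells with that promoter active. No sorting gate is given. The labels give the Col1a1-GFP strain and an age of 8 weeks for the sham and both bleomycin groups. For the pneumonectomy group they give primary sorted lung fibroblasts and another RNA kit, with no age in weeks and no strain, so preparation and pneumonectomy cannot be told apart. The deposited table marks all 13 libraries as young. No label says whether libraries came from single or pooled mice, so p-values measure the spread between libraries, which may in part be technical.

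Runx factors bind DNA together with the partner CBFB. Runx1 is best known for blood cell formation, Runx2 for bone formation and Runx3 for T and NK cells. Snail factors (Snai1, Snai2) and Zeb factors (Zeb1, Zeb2) are zinc-finger repressors that bind E-boxes in genes of epithelial cells, among them Cdh1, and are known for epithelial-to-mesenchymal transition (EMT). Twist1 and Twist2 are basic helix-loop-helix factors of embryonic mesenchyme that pair with E proteins. Prrx1 is a homeobox factor of limb and facial mesenchyme that marks many fibroblasts of the body.

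The promoters of the 3 Runx genes hold a common run of bases, shown here because the 3 genes are compared below. In RefSeq promoter windows of 300 bases (250 before and 50 after a gene start, build GRCm38.p6), the longest run found in all 3 genes was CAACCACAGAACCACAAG, 18 bases that hold a core Runx motif in tandem. Searched on both strands, it occurred in 4 of 32851 windows (0.0122%), namely one each of Runx1, Runx2 and Runx3 and that of Gm16225, which overlaps the Runx3 window on the opposite strand. Each line gives 30 bases around it, 5′ to 3′ on the gene's own strand, with the shared run in capitals.
Runx1, chr16:92826025-92826054, minus strand: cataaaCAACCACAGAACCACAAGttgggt
Runx2, chr17:44814583-44814612, minus strand: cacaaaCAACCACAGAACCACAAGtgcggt
Runx3, chr4:135120503-135120532, plus strand: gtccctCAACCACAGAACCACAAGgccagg
Counted from the RefSeq gene start as base 1, the run began at base 27 of Runx1 and base 22 of Runx2, and it began at position -136 upstream of Runx3. Runx1 and Runx3 each had another promoter window without it. The deposited values sum all transcripts of a gene, so use of either promoter was not measured. The shorter letters TGTGGT, the core Runx motif as read on the opposite strand, were in 16.8% of all windows. The E-box letters CAGGTG, read on both strands, were in 20.2% of windows. Among the factors, windows of 8 were searched, without Snai2 and Zeb1, and a window each of Snai1, Runx1 and Runx3 held these letters. Snai1 is shown because it changed most between the injuries among the Snail and Zeb genes. Its 250 bases before the gene start follow with the E-box, at position -126, in capitals as it reads on this strand.
Snai1, chr2:167537945-167538194, plus strand: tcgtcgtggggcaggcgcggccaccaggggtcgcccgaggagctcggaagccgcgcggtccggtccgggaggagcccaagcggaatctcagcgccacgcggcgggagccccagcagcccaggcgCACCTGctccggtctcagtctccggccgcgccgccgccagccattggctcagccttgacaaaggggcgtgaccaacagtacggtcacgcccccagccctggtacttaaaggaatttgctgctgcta
Such matches describe letters and show no binding.

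Levels are the authors' RPKM, reads per kilobase of gene scaled to a library's total. That total, recovered from the smallest steps in the values, was 132.5 M to 200.1 M reads in the day 30 libraries, 79.8 M to 99.8 M reads in the bleomycin day 14 libraries, 68.9 M to 75.4 M reads after pneumonectomy and 67.5 M to 71.9 M reads in sham. Tests used limma on log2(scaled RPKM + 0.1) for the 12938 genes that reached 1 RPKM in 2 or more libraries. A gene was called at an adjusted p under 0.05, two-sided with Benjamini-Hochberg adjustment over all of these genes, and changes are log2 values ± SE on that scale. The pseudocount understates changes of low genes. Summed RPKM of 10 fibroblast markers was 3026 to 4925 in all 13 libraries. Against sham, 1 of these markers rose and 2 fell at day 30 (median log2 change 0.22). At day 14 after bleomycin 1 rose and 4 fell (-0.32), and after pneumonectomy 3 rose and 1 fell (0.28). Day 14 after bleomycin against pneumonectomy had 0 higher and 8 lower (-0.81). Of all genes, 28.8%, 63.3%, 42.0% and 70.8% were called in the same order. Endothelial markers (15 genes) summed to 18.7 to 21.3 RPKM at day 30, 354 to 677 at day 14 after bleomycin, 24.1 to 54.6 after pneumonectomy and 24.0 to 29.4 in sham. Macrophage and monocyte markers (15 of 16 in the table) summed to 258 to 815, 176 to 580, 35.2 to 56.3 and 34.1 to 45.7 in the same order of groups. Of the 15 endothelial markers, 3 rose and 1 fell at day 30, 14 rose at day 14 and 14 rose and 1 fell after pneumonectomy, and of 14 macrophage markers tested 13 rose at day 30 and 13 at day 14, while 0 rose and 3 fell after pneumonectomy. Among the macrophage markers, Ptprc and Spi1 passed the filter through the bleomycin groups alone. The macrophage counts after bleomycin are therefore in part set by the filter. By Xist and Ddx3y, the day 30 mice were female, the day 14 and pneumonectomy mice male, while sham replicate 1 held RNA of both sexes (Xist 15.9, Ddx3y 2.14 RPKM) and sham replicate 2 was male. Sex and time after bleomycin therefore cannot be told apart. The same holds for sex and injury between day 30 and pneumonectomy. Day 30 against sham also sets female mice against sham libraries that were male or of both sexes.

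**Figure D1:**
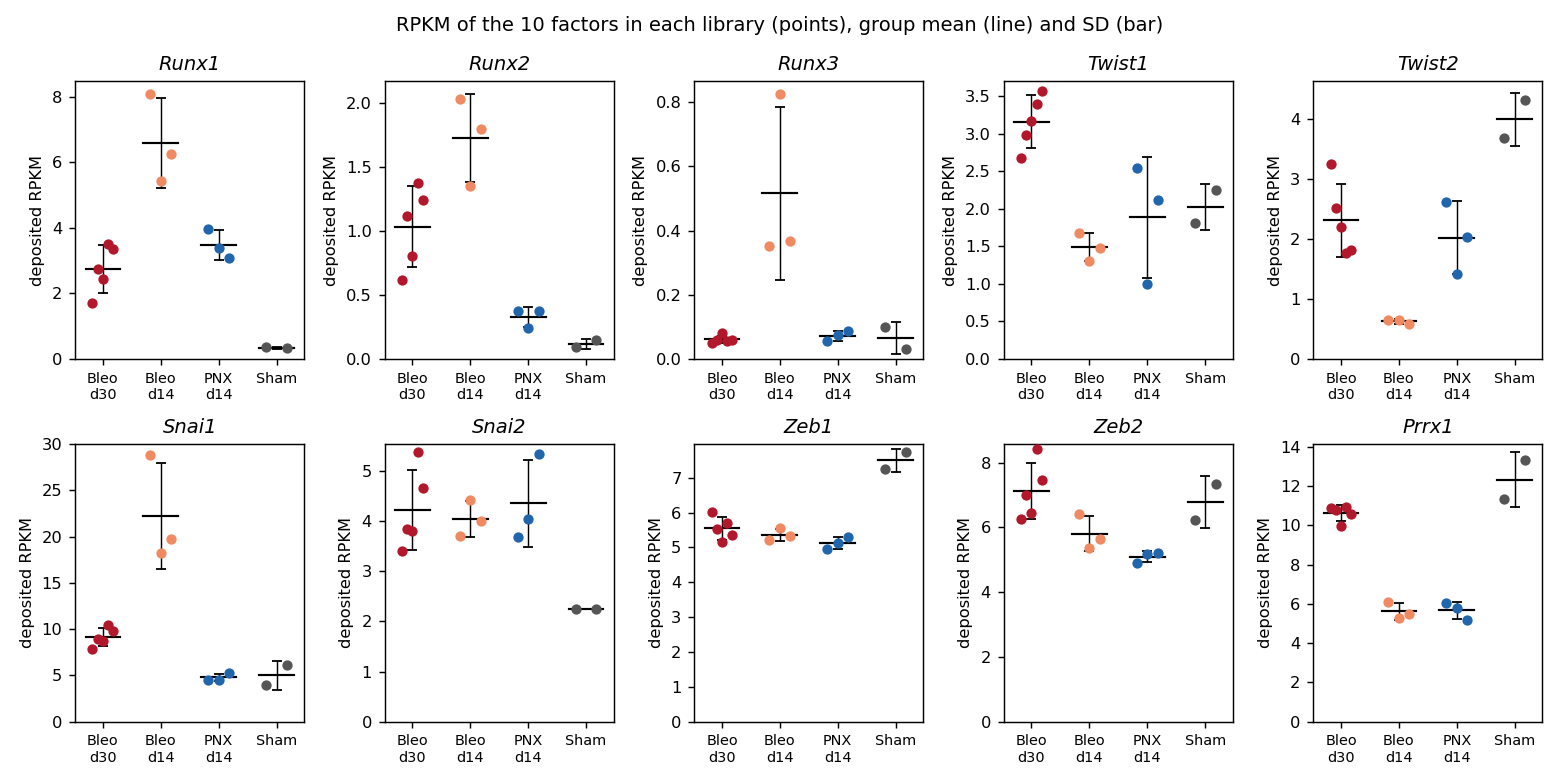
Deposited RPKM of the 10 factors (vertical axes, each from 0) in the libraries of bleomycin day 30, bleomycin day 14, pneumonectomy day 14 and sham, with points for libraries, a line for the group mean and a bar for its SD. Runx1 was at least 1.69 RPKM in every bleomycin and pneumonectomy library, against 0.358 and 0.327 RPKM in sham, while Twist2 was lowest at bleomycin day 14, at 0.580 to 0.654 RPKM.

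Runx1 was low in sham fibroblasts and stood higher in every library of the other groups. It was at 1.69, 2.73, 2.44, 3.52 and 3.36 RPKM at day 30 after bleomycin, 8.09, 5.42 and 6.25 RPKM at day 14, 3.97, 3.37 and 3.07 RPKM after pneumonectomy, and 0.358 and 0.327 RPKM in sham. No library of an injured group overlapped sham. Runx1 rose by 2.54 ± 0.24 at day 30 (adjusted p = 9.92e-05), by 3.67 ± 0.26 at day 14 (adjusted p = 5.12e-07) and by 3.23 ± 0.26 after pneumonectomy (adjusted p = 8.16e-06). The mean levels after bleomycin were 8.03 times (day 30) and 19.2 times (day 14) the sham mean, and the level after pneumonectomy was 10.1 times the sham mean. Sham levels rest on about 291 and 283 reads. The day 14 bleomycin and pneumonectomy groups did not overlap in deposited RPKM. Their difference in the fit was 0.44 ± 0.24 (95% interval -0.08 to 0.95, adjusted p = 0.118). On the RPKM as deposited it was 0.89 and called (adjusted p = 0.00382), so this difference hangs on the scaling between libraries. At day 30 Runx1 was lower than at day 14 by -1.13 ± 0.21 (adjusted p = 0.000712). Against pneumonectomy it was lower at day 30 by -0.69 ± 0.21 (adjusted p = 0.0148), with overlapping libraries. That call was lost in 2 of 16 alternatives.

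Runx1 is also expressed by blood cells, and markers of other cells moved in the same groups. At day 30 macrophage sums were 258 to 815 RPKM, against 34.1 to 45.7 in sham, and endothelial sums were 18.7 to 21.3 RPKM, against 24.0 to 29.4 in sham. At day 14 after bleomycin both macrophage sums (176 to 580 RPKM) and endothelial sums (354 to 677 RPKM) were above sham. After pneumonectomy endothelial sums were 24.1 to 54.6 RPKM, 14 of 15 endothelial markers rose, and macrophage sums were 35.2 to 56.3 RPKM. Among the day 14 bleomycin libraries, replicate 1 had the highest Runx1 and the lowest of these sums (354 and 176 RPKM), which were still above all sham libraries. The part of other cells in the Runx1 level was not tested. In bulk RNA, a change in the number of cells that express a gene and a change of RNA per cell cannot be told apart.

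Runx2, the factor of the bone-forming lineage, rose in both injuries but to different heights. It stood at 0.619, 1.12, 0.803, 1.38 and 1.25 RPKM at day 30 after bleomycin and at 2.04, 1.36 and 1.80 RPKM at day 14. After pneumonectomy it was at 0.374, 0.240 and 0.376 RPKM, and in sham at 0.0905 and 0.148 RPKM, which are about 54 and 94 reads. The 4 groups overlapped in one place, between days 30 and 14 after bleomycin. Runx2 passed the filter on low values through the bleomycin groups alone. It rose by 2.25 ± 0.28 at day 30 (adjusted p = 0.000299), by 2.85 ± 0.30 at day 14 (adjusted p = 7.98e-06) and by 1.15 ± 0.30 after pneumonectomy (adjusted p = 0.0101). The last of these was no longer called with a pseudocount of 1 (0.31, adjusted p = 0.121) or when sham replicate 1 was left out (0.96, adjusted p = 0.0742). Runx2 at day 14 was higher after bleomycin than after pneumonectomy by 1.69 ± 0.27 (adjusted p = 0.000145), and higher at day 30 than after pneumonectomy by 1.09 ± 0.24 (adjusted p = 0.00233). Both differences were called in every alternative that was run, with the RPKM as deposited and the fit with no filter among them. Day 30 against pneumonectomy also sets female against male mice, and the part of sex was not tested. As the filter kept Runx2 for its bleomycin levels, the filtered tests of bleomycin against the other groups are not independent of the filter. The lower level at day 30 than at day 14 (-0.60 ± 0.24, adjusted p = 0.0489) was not called in 12 of 18 alternatives. Those 12 include leaving out day 14 replicate 1 (-0.46), day 14 replicate 3 (-0.59), day 30 replicate 1 (-0.45), day 30 replicate 2 (-0.64) or day 30 replicate 3 (-0.53).

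Runx3 stayed under 1 RPKM in all libraries, failed the filter and has values from a fit with no filter (31266 genes). It was at 0.0498, 0.0579, 0.0805, 0.0557 and 0.0603 RPKM at day 30 after bleomycin, 0.353, 0.825 and 0.368 RPKM at day 14, 0.0561, 0.0743 and 0.0871 RPKM after pneumonectomy, and 0.101 and 0.0306 RPKM in sham. Only the day 14 bleomycin libraries lay above the sham range. In that fit Runx3 rose by 1.67 ± 0.28 at day 14 against sham (adjusted p = 0.000708, 35.6% of genes called), and it was 1.48 ± 0.25 higher than after pneumonectomy (adjusted p = 0.000590, 39.7% called). At day 30 the change against sham was -0.06 ± 0.26 and after pneumonectomy 0.19 ± 0.28, both not called (13.4% and 19.9% of genes called). Runx3 was lower at day 30 than at day 14 by -1.72 ± 0.23 (adjusted p = 0.000132, 30.6% of genes called), and day 30 against pneumonectomy was not called (-0.24 ± 0.23, adjusted p = 0.484, 30.4% called). The pseudocount of 0.1 is above most of these levels, and the change at day 14 against sham ran between 0.43 (pseudocount of 1) and 2.63 (pseudocount of 0.01). The day 14 values rest on about 141, 412 and 161 reads, and the sham values on 34 and 11. T and NK markers (13 genes) summed to 3.32, 7.11 and 4.09 RPKM in day 14 replicates 1, 2 and 3, and replicate 2, with the highest Runx3, also had the highest Ptprc (2.41 RPKM) and Nkg7 (0.684 RPKM). After pneumonectomy these markers summed to 2.48 to 4.68 RPKM with Runx3 near its sham level, and Cd3e alone held 1.58 to 3.96 RPKM of that. Cd3e was higher there (2.64 ± 1.21 RPKM) than at day 14 after bleomycin (0.290 ± 0.137 RPKM). Nkg7 went the other way (0.0725 ± 0.0159 RPKM after pneumonectomy and 0.422 ± 0.230 at day 14), as did Ptprc (0.209 ± 0.061 and 1.56 ± 0.77 RPKM). The part of such cells in the Runx3 level was not tested.

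The summed RPKM of the 3 Runx genes was 2.36 to 4.95 at day 30 after bleomycin, 7.60 to 10.5 at day 14, 3.54 to 4.40 after pneumonectomy and 0.505 to 0.549 in sham. Runx1 made up 69.8% to 73.5% of the sum at day 30 and 71.3% to 77.2% at day 14. It made up 86.9% to 91.5% after pneumonectomy and 64.7% to 65.2% in sham, so the pneumonectomy libraries held the highest shares of the 4 groups. The ratio of Runx2 to Runx1, which no scaling between libraries can alter, averaged 0.374 ± 0.031 at day 30, 0.263 ± 0.021 at day 14, 0.0960 ± 0.0257 after pneumonectomy and 0.353 ± 0.141 in sham. Pneumonectomy libraries overlapped none of the other groups in this ratio. By an exact permutation test over libraries, two-sided, the ratio differed between day 30 and pneumonectomy with p = 0.0357, the smallest that design allows (0.143 after Benjamini-Hochberg adjustment over 24 tests of 4 ratios). For day 14 bleomycin against pneumonectomy the exact p was 0.1, again the smallest possible. None of the 24 ratio tests passed 0.05 after adjustment. With so few libraries none could have passed, so nothing is read from this.

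Of the sister genes Snai1 and Snai2, Snai1 rose after bleomycin and was not called after pneumonectomy, while Snai2 rose in all 3 groups. Snai1 was at 7.89, 8.97, 8.78, 10.5 and 9.86 RPKM at day 30 after bleomycin, 28.8, 18.2 and 19.8 RPKM at day 14, 4.56, 4.56 and 5.26 RPKM after pneumonectomy, and 3.92 and 6.10 RPKM in sham. The bleomycin groups lay above sham and above each other without overlap, and the pneumonectomy libraries lay inside the sham range. Snai1 rose by 0.77 ± 0.20 at day 30 (adjusted p = 0.0137) and by 1.89 ± 0.21 at day 14 (adjusted p = 1.41e-05). At day 30 it was no longer called when sham replicate 1, the library with RNA of both sexes, was left out (0.46, adjusted p = 0.173). After pneumonectomy the difference was 0.19 ± 0.21 (95% interval -0.28 to 0.66, adjusted p = 0.505), with its sign turned on the RPKM as deposited (-0.03) and without sham replicate 1 (-0.12). Snai1 at day 14 was higher after bleomycin than after pneumonectomy by 1.71 ± 0.19 (adjusted p = 9.90e-06), a call that held in every alternative run. Day 14 replicate 1 had the highest Snai1 of its group, with the lowest endothelial (354 RPKM) and macrophage (176 RPKM) marker sums and the highest sum of dividing-cell markers (38.0 RPKM). The part of other cells or of dividing cells in the Snai1 level was not tested.

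Snai2, also called Slug, was at 3.40, 3.85, 3.80, 5.39 and 4.67 RPKM at day 30 after bleomycin, 3.71, 4.42 and 4.01 RPKM at day 14, 3.69, 4.05 and 5.34 RPKM after pneumonectomy, and 2.25 RPKM in both sham libraries. All libraries of injured lungs lay above sham and the 3 injured groups overlapped each other. Snai2 rose by 0.75 ± 0.16 at day 30 (adjusted p = 0.00562), by 0.58 ± 0.17 at day 14 (adjusted p = 0.0114) and by 1.13 ± 0.17 after pneumonectomy (adjusted p = 0.000432). The day 14 call was lost when either sham library was left out (0.58 both times, adjusted p = 0.0510 and 0.0512). Its lower level at day 14 after bleomycin than after pneumonectomy (-0.55 ± 0.15, adjusted p = 0.00749) was -0.09 and not called on the RPKM as deposited. The ratio of Snai1 to Snai2 averaged 2.20 ± 0.17 at day 30, 5.60 ± 1.91 at day 14, 1.12 ± 0.125 after pneumonectomy and 2.23 ± 0.69 in sham. Neither the day 14 bleomycin nor the pneumonectomy libraries overlapped sham or each other in this ratio, and they lay on opposite sides of sham (exact permutation p = 0.2 against sham for each and 0.1 between them, the smallest possible).

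**Figure D2:**
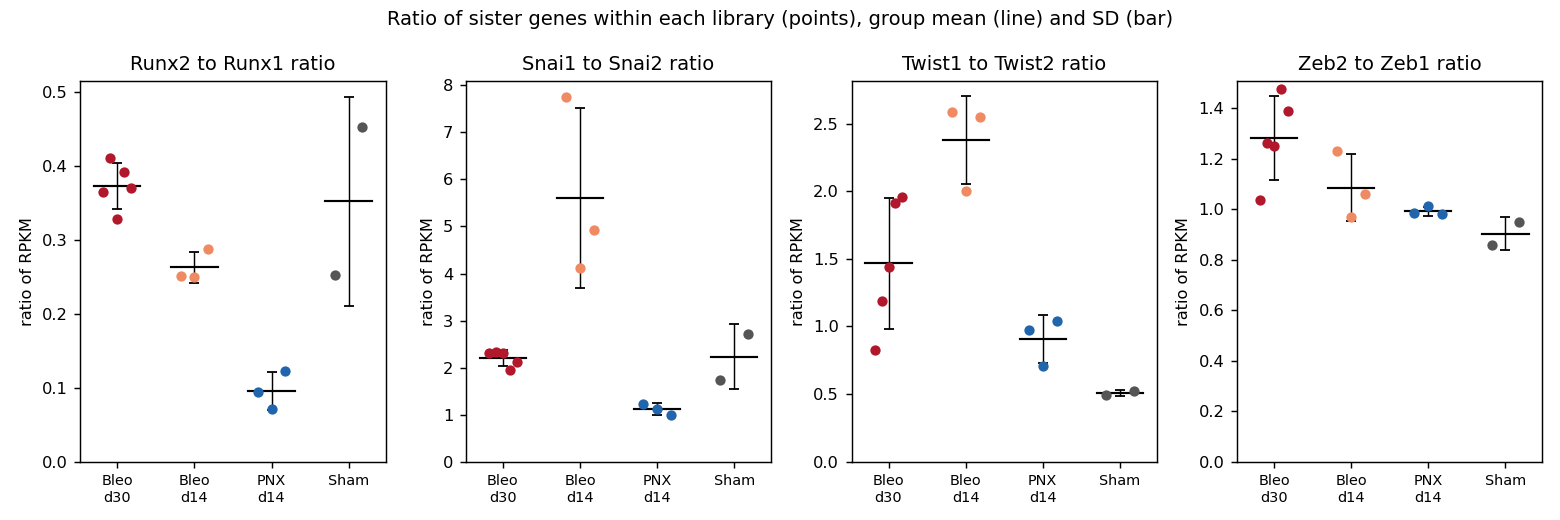
Ratio of RPKM of sister genes within each library (vertical axes, from 0) for Runx2 to Runx1, Snai1 to Snai2, Twist1 to Twist2 and Zeb2 to Zeb1, with points for libraries, a line for the group mean and a bar for its SD. The Snai1 to Snai2 ratio was 4.12 to 7.75 at bleomycin day 14 and 0.986 to 1.23 after pneumonectomy, and the Twist1 to Twist2 ratio was lowest in sham, at 0.493 and 0.521.

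Twist2 fell in every injured group, while Twist1 was not called against sham in any. Twist2 was at 3.25, 2.51, 2.20, 1.77 and 1.82 RPKM at day 30 after bleomycin, 0.651, 0.654 and 0.580 RPKM at day 14, 2.62, 1.41 and 2.04 RPKM after pneumonectomy, and 3.68 and 4.31 RPKM in sham. All libraries of injured lungs lay below both sham libraries, and those of day 14 after bleomycin lay below all others. Twist2 fell by 0.91 ± 0.24 on the log2 scale at day 30 (adjusted p = 0.0170), by 2.70 ± 0.26 at day 14 (adjusted p = 4.54e-06) and by 0.77 ± 0.26 after pneumonectomy (adjusted p = 0.0346). At day 30 it was not called when either sham library was left out (-1.02, adjusted p = 0.0532 without the first, and -0.79, adjusted p = 0.128 without the second). The pneumonectomy call was lost without sham replicate 1 (-0.88), sham replicate 2 (-0.66), pneumonectomy library B (-0.57) or C (-0.79). Twist2 at day 14 was lower after bleomycin than after pneumonectomy by -1.93 ± 0.24 (adjusted p = 1.95e-05) and higher at day 30 than at day 14 by 1.79 ± 0.21 (adjusted p = 2.19e-05), both in every alternative run. Endothelial sums were highest at day 14 after bleomycin (354 to 677 RPKM). The part of other cells in the lower Twist2 and Twist1 there was not tested. An antisense transcript, Gm29100, covers 46.5% of the exon bases of Twist2, and the kit does not keep strand. Gm29100 moved with it, at 0.898 ± 0.197 RPKM at day 30, 0.310 ± 0.026 at day 14, 0.888 ± 0.312 after pneumonectomy and 1.70 ± 0.19 in sham, so reads of the pair cannot be told apart.

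Twist1 was at 2.67, 2.99, 3.16, 3.40 and 3.57 RPKM at day 30 after bleomycin, 1.68, 1.31 and 1.48 RPKM at day 14, 2.55, 0.993 and 2.12 RPKM after pneumonectomy, and 1.81 and 2.24 RPKM in sham. In deposited RPKM the day 30 libraries lay above all others, those of day 14 after bleomycin lay below sham, and the pneumonectomy libraries spread across both. On the scaled values pneumonectomy library A (3.11) lay above day 30 replicates 1, 2 and 3 (2.56, 2.88 and 3.05). Day 30 against pneumonectomy was not called (0.48 ± 0.23, adjusted p = 0.0958). Against sham Twist1 differed by 0.50 ± 0.26 at day 30 (95% interval -0.08 to 1.08, adjusted p = 0.176), -0.65 ± 0.29 at day 14 (95% interval -1.28 to -0.02, adjusted p = 0.0674) and 0.02 ± 0.29 after pneumonectomy (95% interval -0.61 to 0.65, adjusted p = 0.958). With only the compared groups in the fit, the first and the second of these were called (adjusted p = 0.0246 and 0.0150). Day 30 exceeded day 14 by 1.15 ± 0.23 (adjusted p = 0.00115), a call lost, among the alternatives run, when day 14 replicate 1 was the only library of its group (0.93). The ratio of Twist1 to Twist2 averaged 1.47 ± 0.48 at day 30, 2.38 ± 0.33 at day 14, 0.907 ± 0.178 after pneumonectomy and 0.507 ± 0.020 in sham. No injured library reached down to sham (exact permutation p = 0.0952 for day 30, and 0.2 for day 14 and pneumonectomy, the smallest possible in each).

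Zeb1 fell in every injured group. It was at 6.03, 5.54, 5.16, 5.69 and 5.37 RPKM at day 30 after bleomycin, 5.21, 5.56 and 5.33 RPKM at day 14, 4.97, 5.12 and 5.30 RPKM after pneumonectomy, and 7.26 and 7.73 RPKM in sham. All 11 injured libraries lay below both sham libraries. Zeb1 fell by 0.54 ± 0.06 on the log2 scale at day 30 (adjusted p = 0.000239), by 0.72 ± 0.07 at day 14 (adjusted p = 4.10e-06) and by 0.32 ± 0.07 after pneumonectomy (adjusted p = 0.00372), all 3 called in every alternative run. The part of other cells in these falls was not tested. Differences among the injured groups were small. Day 14 after bleomycin against pneumonectomy was -0.40 ± 0.06 in the fit and 0.06 on the RPKM as deposited, so its direction hangs on the scaling.

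Zeb2, also a factor of macrophages, was at 6.25, 7.01, 6.45, 8.41 and 7.45 RPKM at day 30 after bleomycin, 6.40, 5.38 and 5.66 RPKM at day 14, 4.89, 5.18 and 5.19 RPKM after pneumonectomy, and 6.23 and 7.35 RPKM in sham. Bleomycin libraries of both days overlapped sham, and pneumonectomy libraries lay below it. Zeb2 fell at day 14 by 0.46 ± 0.12 on the log2 scale (adjusted p = 0.00697), a call lost on the RPKM as deposited (-0.22, adjusted p = 0.131), without sham replicate 2 (-0.34, adjusted p = 0.0824) and with day 14 replicate 1 as the only library of its group (-0.26), an alternative chosen after seeing the data in which that library is assumed to vary like the other groups. The differences at day 30 (-0.05 ± 0.11, adjusted p = 0.750; 0.06 as deposited and 0.07 without sham replicate 2) and after pneumonectomy (-0.19 ± 0.12, adjusted p = 0.253) were not called. On the RPKM as deposited the pneumonectomy difference was -0.40 and called (adjusted p = 0.0156). Day 30 exceeded day 14 by 0.41 ± 0.10 (adjusted p = 0.00429), a call lost with day 14 replicate 1 alone (0.21). Macrophage marker sums were 258 to 815 RPKM at day 30 and 176 to 580 at day 14, and their part in the Zeb2 level was not tested. The ratio of Zeb2 to Zeb1 averaged 1.28 ± 0.17 at day 30, 1.09 ± 0.13 at day 14, 0.992 ± 0.017 after pneumonectomy and 0.904 ± 0.066 in sham.

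Prrx1, the most abundant of the 10 factors in sham, was at 10.9, 10.8, 9.98, 10.9 and 10.6 RPKM at day 30 after bleomycin, 6.09, 5.27 and 5.48 RPKM at day 14, 6.04, 5.80 and 5.20 RPKM after pneumonectomy, and 11.3 and 13.3 RPKM in sham. The day 14 groups of both injuries lay at about the same deposited RPKM, and day 30 lay between them and sham. Prrx1 fell by 0.32 ± 0.09 on the log2 scale at day 30 (adjusted p = 0.0244), by 1.36 ± 0.10 at day 14 (adjusted p = 6.46e-07) and by 0.88 ± 0.10 after pneumonectomy (adjusted p = 7.19e-05). The day 30 call was lost on the RPKM as deposited (-0.21, adjusted p = 0.0773) and without sham replicate 2 (-0.21, adjusted p = 0.260). Day 30 exceeded day 14 by 1.03 ± 0.08 (adjusted p = 8.92e-07) in every alternative run. Prrx1 at day 14 was lower after bleomycin than after pneumonectomy by -0.48 ± 0.09 (adjusted p = 0.000611), which was -0.02 and not called on the RPKM as deposited. The part of other cells in the lower Prrx1 levels was not tested.

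**Figure D3:**
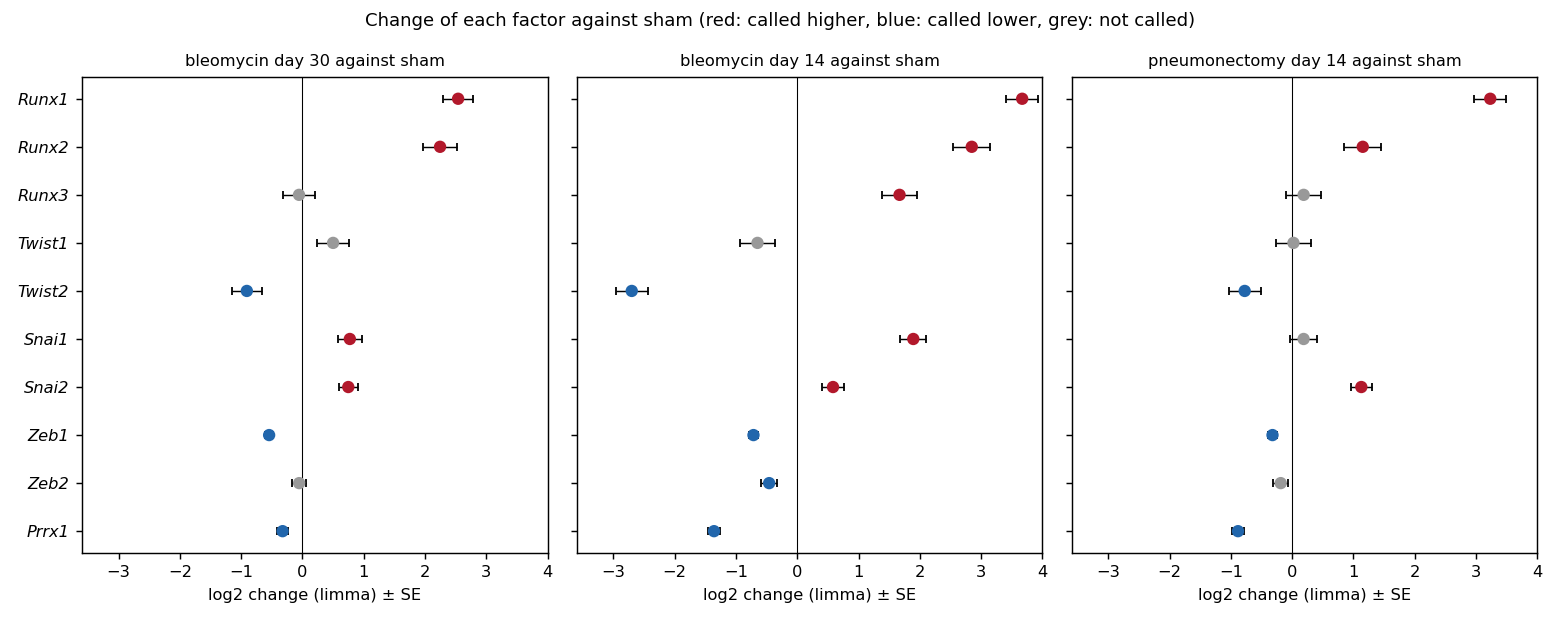
Log2 change of each factor against sham (horizontal axis, limma fit, bars SE) at bleomycin day 30, bleomycin day 14 and pneumonectomy day 14, coloured by call; Runx3 is from the fit with no filter. Runx1 rose in all 3 panels by 2.54, 3.67 and 3.23, while Snai1 was called in both bleomycin panels and not after pneumonectomy.

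Of the 9 factors in the filtered fit, 4 rose, 3 fell and 2 were not called at day 30 against sham, where 28.8% of all genes were called, 14.8% higher and 14.1% lower. At day 14 after bleomycin 4 rose, 4 fell and 1 was not called (63.3% of all genes called, 33.4% higher and 29.9% lower), and after pneumonectomy 3 rose, 3 fell and 3 were not called (42.0% of all genes called, 22.6% higher and 19.3% lower). These 3 comparisons share the sham libraries, and Runx2, 1 of the 9, passed the filter through the bleomycin groups alone. Between day 14 after bleomycin and pneumonectomy 2 factors were higher, 6 lower and 1 not called (70.8% called, 36.2% higher and 34.6% lower). Between days 30 and 14 after bleomycin 5 were higher, 3 lower and 1 not called (59.6%, with 28.9% higher and 30.7% lower), and between day 30 and pneumonectomy 3 were higher, 3 lower and 3 not called (57.6%, with 28.5% higher and 29.0% lower). Of the 6 factors lower at day 14 after bleomycin than after pneumonectomy, Twist2 alone was also called lower on the RPKM as deposited, where Zeb1 and Zeb2 changed sign. In the same comparison 8 of 10 fibroblast markers were lower and 0 higher (median -0.81). The part of other cells in the lower levels of these 6 factors was not tested. With so many genes called, the counts of factors say little in themselves. The median change of the 9 factors was 0.50 at day 30, -0.46 at day 14 and 0.02 after pneumonectomy, beside medians over all genes of -0.0023, 0.024 and 0.0053.

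Scaling between libraries matters for the small changes. Scaling factors were 1.04 to 1.07 at day 30, 1.10 to 1.18 at day 14 after bleomycin, 0.814 to 0.848 after pneumonectomy and 0.964 and 0.966 in sham. On the RPKM as deposited the median of all genes moved to 0.11, 0.26 and -0.21 against sham (day 30, day 14, pneumonectomy), to 0.47 for day 14 after bleomycin against pneumonectomy, to -0.13 for day 30 against day 14 and to 0.34 for day 30 against pneumonectomy. Calls split into 1912 higher and 1819 lower at day 30 (3105 and 957 as deposited), 4318 and 3870 at day 14 (6193 and 2451 as deposited) and 2930 and 2500 after pneumonectomy (1762 and 5185 as deposited). They split into 4684 higher and 4474 lower between day 14 after bleomycin and pneumonectomy (7918 and 2307 as deposited), 3739 and 3972 between days 30 and 14 (2785 and 5213 as deposited) and 3693 and 3756 between day 30 and pneumonectomy (7408 and 1725 as deposited).

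Partners of the Runx factors moved both ways. Of 18 tested, 2 rose, 5 fell and 11 were not called at day 30, 4 rose, 8 fell and 6 were not called at day 14, and 10 rose, 1 fell and 7 were not called after pneumonectomy, where 28.8%, 63.3% and 42.0% of all genes were called. Cbfb, the shared partner, was at 9.86 ± 0.34 RPKM at day 30, 13.1 ± 0.37 at day 14, 7.83 ± 0.52 after pneumonectomy and 9.35 ± 0.85 in sham, and rose by 0.24 ± 0.09 at day 14 (adjusted p = 0.0290). Runx1t1, a corepressor of the ETO family, fell by 1.18 ± 0.12 on the log2 scale at day 14 (adjusted p = 5.77e-06). Cbfa2t3, of the same family, rose by 1.39 ± 0.25 at day 14 (adjusted p = 0.000513) and by 0.92 ± 0.25 after pneumonectomy (adjusted p = 0.0130). The corepressor Tle3 fell by 0.62 ± 0.07 at day 14 and rose by 0.38 ± 0.07 after pneumonectomy. Wwtr1, the coactivator TAZ, rose by 0.32 ± 0.07 at day 14 and by 0.66 ± 0.07 after pneumonectomy. The median change of the partners was -0.16 at day 30, -0.10 at day 14 and 0.31 after pneumonectomy.

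Bone genes known downstream of Runx2 were followed as a list of 19, of which 8 passed the filter. Of these, 4 had no sham library at 1 RPKM, and Ibsp, Mmp13 and Tnfrsf11b passed through the bleomycin groups alone, so their rise after bleomycin is in part set by the filter and nothing is read from the count. At day 30, 5 rose, 0 fell and 3 were not called, at day 14, 5 rose, 1 fell and 2 were not called, and after pneumonectomy, 4 rose, 0 fell and 4 were not called, where 28.8%, 63.3% and 42.0% of all genes were called. Spp1, osteopontin, averaged 427 ± 114 RPKM at day 30, 1118 ± 349 at day 14, 6.87 ± 2.83 after pneumonectomy and 2.61 ± 0.42 in sham. Mmp13, a collagenase of cartilage and bone, averaged 1.73 ± 0.536 RPKM at day 30, 7.53 ± 3.16 at day 14, 0.269 ± 0.141 after pneumonectomy and 0.0426 ± 0.0133 in sham. It rose by 3.55 ± 0.38 at day 30, 5.46 ± 0.41 at day 14 and 1.49 ± 0.41 after pneumonectomy. Ibsp, bone sialoprotein, was at 7.03 ± 3.13 RPKM at day 30 and 1.66 ± 0.90 at day 14, against 0.0143 and 0 RPKM in the sham libraries. Unlike Runx2, which was higher at day 14 in the means, Ibsp was higher at day 30 than at day 14, by 2.10 ± 0.48 (adjusted p = 0.00295). Sp7, the osteoblast factor osterix, stayed at 0.122 ± 0.070 RPKM at day 30, 0.0330 ± 0.0212 at day 14, 0.0186 ± 0.0119 after pneumonectomy and 0.00239 ± 0.00338 in sham, under the filter. Phex, a gene of osteoblasts, fell by 0.64 ± 0.20 on the log2 scale at day 14 and rose by 1.47 ± 0.20 after pneumonectomy.

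Twist pairs with E proteins and is held back by Id proteins. Of 10 such genes tested, 1 rose, 2 fell and 7 were not called at day 30, 4 rose, 4 fell and 2 were not called at day 14, and 5 rose, 1 fell and 4 were not called after pneumonectomy (medians -0.01, -0.04 and 0.38), beside 28.8%, 63.3% and 42.0% of all genes called. Scx passed the filter through the bleomycin groups alone. The E protein Tcf3 rose by 0.40 ± 0.07 at day 14 (adjusted p = 0.000297). The Id genes split at day 14, where Id1 rose by 1.32 ± 0.22, Id2 fell by 0.88 ± 0.20 and Id4 fell by 1.62 ± 0.17, and after pneumonectomy Id3 rose by 1.08 ± 0.18 and Id4 by 0.73 ± 0.17. Id1 is also a gene of endothelium, whose markers were highest at day 14 after bleomycin. The related factors Tcf21, a marker of lung fibroblasts, and Msc fell by 2.06 ± 0.16 and 1.66 ± 0.16 at day 14, while Scx, the tendon factor scleraxis, rose by 2.59 ± 0.28. Scx averaged 1.31 ± 0.40 RPKM at day 30, 2.71 ± 0.30 at day 14, 0.671 ± 0.067 after pneumonectomy and 0.312 ± 0.148 in sham.

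Cofactors and turnover genes of the Snail and Zeb proteins numbered 18 tested. At day 30, 2 rose, 2 fell and 14 were not called, at day 14, 9 rose, 2 fell and 7 were not called, and after pneumonectomy, 9 rose, 1 fell and 8 were not called (medians -0.00235, 0.17 and 0.25), beside the same shares of all genes called, 28.8%, 63.3% and 42.0%. Ajuba passed the filter through the bleomycin groups alone. Pak1, a kinase known to phosphorylate SNAI1, rose by 1.41 ± 0.19, 2.27 ± 0.20 and 0.81 ± 0.20 in the same order. Smarca4, the ATPase BRG1, rose by 1.06 ± 0.10 at day 14 (adjusted p = 3.26e-06), and Lats2, a Hippo kinase, fell by 0.37 ± 0.06 at day 30 and by 0.20 ± 0.06 at day 14 and rose by 0.38 ± 0.06 after pneumonectomy.

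Epithelial genes that Snail and Zeb factors are known to repress were near the floor in most libraries. Of 20, 6 passed the filter, 5 of them with no sham library at 1 RPKM, so nothing is read from the counts that follow. At day 30, 2 rose, 1 fell and 3 were not called, at day 14, 1 rose, 1 fell and 4 were not called, and after pneumonectomy, 3 rose, 0 fell and 3 were not called (28.8%, 63.3% and 42.0% of all genes called). Cdh1, E-cadherin, was at 1.05 ± 1.90 RPKM at day 30, 0.370 ± 0.140 at day 14, 0.359 ± 0.227 after pneumonectomy and 0.0635 ± 0.0339 in sham. Its day 30 mean rests on replicate 3, which held 4.45 RPKM of Cdh1 and an epithelial marker sum of 1341 RPKM. Ocln, a tight junction protein also made by endothelium, rose by 3.28 ± 0.49 at day 14. Ocln passed the filter through the bleomycin groups alone, so this rise is in part set by the filter. Dsp, desmoplakin, fell by 2.87 ± 0.35 at day 14 and by 0.94 ± 0.32 at day 30.

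Mesenchymal genes raised in EMT numbered 21 tested, of which 7 rose, 1 fell and 13 were not called at day 30, 11 rose, 4 fell and 6 were not called at day 14, and 13 rose, 1 fell and 7 were not called after pneumonectomy (medians 0.45, 0.71 and 0.81). Of all genes, 28.8%, 63.3% and 42.0% were called in the same order. Mmp9 passed the filter through the bleomycin groups alone. Tnc, tenascin C, rose by 4.65 ± 0.38, 6.11 ± 0.41 and 4.32 ± 0.41 in that order, and Cdh11, a fibroblast cadherin, by 1.35 ± 0.21, 1.29 ± 0.22 and 1.71 ± 0.22. Acta2, smooth muscle actin, fell by 0.76 ± 0.26 at day 30 and by 0.85 ± 0.28 at day 14 and rose by 0.84 ± 0.28 after pneumonectomy. S100a4 rose by 2.92 ± 0.26 at day 14 and by 0.98 ± 0.24 at day 30, and after pneumonectomy its difference was 0.31 ± 0.26. Fn1, fibronectin, rose by 1.49 ± 0.29 at day 14 (adjusted p = 0.000814).

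Other mesenchymal factors were 15, with 9 tested. At day 30, 3 rose, 0 fell and 6 were not called, at day 14, 3 rose, 4 fell and 2 were not called, and after pneumonectomy, 3 rose, 1 fell and 5 were not called (medians 0.06, -0.03 and 0.38), beside 28.8%, 63.3% and 42.0% of all genes called. Hmga2 passed the filter through the bleomycin groups alone. Prrx2, the sister of Prrx1, rose by 0.73 ± 0.20 at day 30 and by 0.86 ± 0.22 at day 14, was not called after pneumonectomy (-0.14 ± 0.22, adjusted p = 0.626), and was 1.00 ± 0.20 higher at day 14 after bleomycin than after pneumonectomy (adjusted p = 0.000738). Sox4 rose in all 3 groups, by 1.54 ± 0.17, 1.62 ± 0.19 and 1.40 ± 0.19. Hmga2, a chromatin protein known to act on Snai1 and Twist1, was at 0.145 ± 0.067 RPKM at day 30, 1.40 ± 0.53 at day 14, 0.0298 ± 0.0225 after pneumonectomy and 0.00328 ± 0.00464 in sham. The forkhead factor Foxc1 fell by 2.18 ± 0.24 at day 14 and Sox9 by 1.66 ± 0.28.

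**Figure D4:**
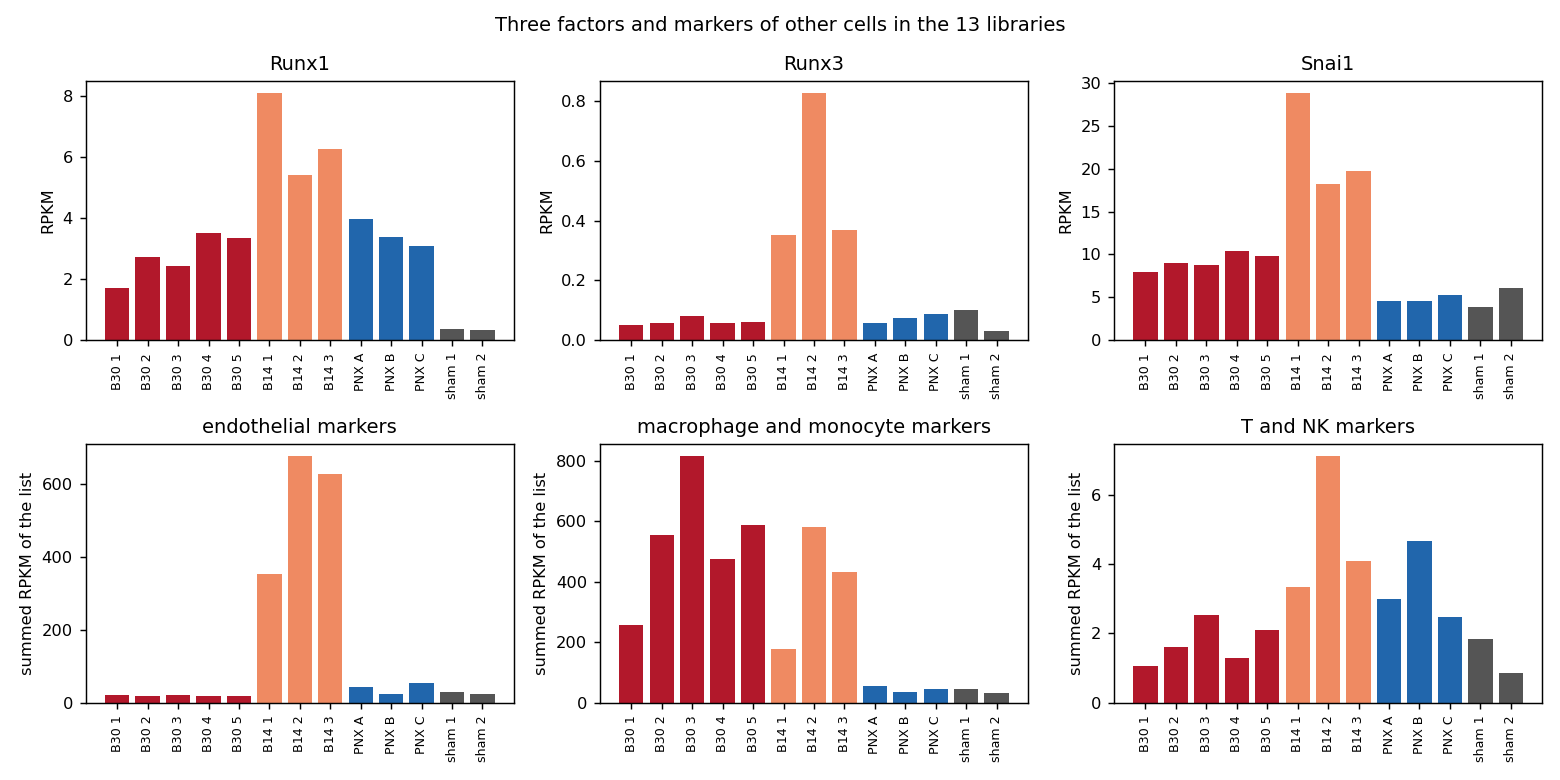
RPKM of Runx1, Runx3 and Snai1 and summed RPKM of endothelial, macrophage and monocyte, and T and NK markers (vertical axes, from 0) in each of the 13 libraries, with B30 and B14 for bleomycin days 30 and 14 and PNX for pneumonectomy day 14. Bleomycin day 14 replicate 1 had the highest Runx1 (8.09 RPKM) and Snai1 (28.8 RPKM) and the lowest endothelial sum of its group (354 RPKM), while Runx3 was highest in replicate 2 (0.825 RPKM), as were the T and NK markers (7.11 RPKM).

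Markers of dividing cells (8 genes) summed to 2.29 to 4.21 RPKM at day 30, 30.3 to 38.0 at day 14 after bleomycin, 1.73 to 1.89 after pneumonectomy and 0.973 to 1.43 in sham, highest at day 14 after bleomycin as Snai1 was. The genes whose pattern over the 13 libraries was most like that of a factor were ranked by the root-mean-square difference of centred log2 values. For Snai1 these were Smc4, a condensin subunit of dividing cells (0.17), Pdia5 (0.23) and Fn1 (0.23). For Runx1 they were Nrcam (0.27), Serpina3h (0.36) and Serpina3i (0.37), for Runx2 Gpc1 (0.18), Tcf7 (0.20) and Rnf149 (0.24), and for Twist2 Cdkn1c (0.18), Lrrc17 (0.21) and Fam19a5 (0.22). Twist1 lay nearest Iglon5, Ankrd29 and Klhl33 (0.28 each), and Snai2 nearest Cd59a (0.14), St3gal5 (0.14) and Pag1 (0.15). Zeb1 lay nearest Lrch3, Wrn and Phf3 (0.065 to 0.090), Zeb2 nearest Ttc3, Pik3r2 and Xrn1 (0.092 to 0.099), and Prrx1 nearest Pygo1, Palm and Epdr1 (0.12 to 0.14). All 27 stayed among the nearest 3 on the RPKM as deposited. Scaling shifts all genes of a library almost alike, so this outcome was nearly fixed in advance and says little about scaling.

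Other transcripts overlap some factors, and without strand their reads are shared. By GENCODE M21 (mm10), Runx2os1 covers 5.87% of the exon bases of Runx2, Zeb2os 3.27% of Zeb2, Gm10125 1.93% of Zeb1 and Gm26626 0.88% of Runx1. Runx2os1 followed Runx2, at 0.529 ± 0.171 RPKM at day 30, 1.03 ± 0.27 at day 14, 0.251 ± 0.163 after pneumonectomy and 0.0719 ± 0.0224 in sham. Gm26626 was at 0.953 ± 0.174, 1.55 ± 0.49, 1.14 ± 0.25 and 0.0805 ± 0.0036 RPKM in the same order. On mm10 the genes lie at chr16:92601466-92826149 (Runx1), chr17:44495987-44814797 (Runx2), chr4:135120652-135177990 (Runx3), chr12:33957671-33959829 (Twist1), chr1:91801461-91848028 (Twist2), chr2:167538195-167542814 (Snai1), chr16:14705852-14709385 (Snai2), chr18:5591860-5775467 (Zeb1), chr2:44983632-45117395 (Zeb2) and chr1:163245119-163313710 (Prrx1).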

How the data were processed

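RNA sequencing of 13 lung fibroblast libraries was taken from the table of RPKM that the authors deposited, with 43346 genes. The builds mm10 and GRCm38 come from the submitters' processing notes, and the aligner, counter and annotation are not given in the sources used here. All 13 value columns were used, and the pneumonectomy libraries, unnumbered in the table, are given the letters A, B and C. RPKM were scaled between libraries by a trimmed mean of log ratios, computed here with 30% of ratios and 5% of levels trimmed at each end. Then 0.1 was added before log2, and the 12938 genes that reached 1 RPKM in 2 or more libraries were kept. Limma 3.58.1 in R 4.3.3 fitted a mean per group over all 13 libraries, with an intensity trend and robust empirical Bayes, and 6 contrasts were drawn, so sham is assumed to vary like the other groups. The script was tested on simulated data. Ratios were tested with exact permutations in Python 3.11.15 and scipy 1.17.1. Depth was read from the smallest RPKM steps and GENCODE M21 exon lengths, and covers counting error only. Sequences are from RefSeq tables on GRCm38.p6, and windows of 8 of the 10 factors were used, without Snai2 and Zeb1. Windows on chromosome 18, where Zeb1 lies, were left out of the search of the factors.

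The members and gene lists were chosen with earlier results of these data known. Named genes are all 10 factors, the 3 genes nearest each in pattern, up to 5 called genes per list and comparison with the smallest p, and overlapping antisense genes. Further genes (Cbfb, Cdh1, Sp7, Ptprc, Nkg7, Cd3e, Xist, Ddx3y and others outside those ranks) were chosen after their values were seen. Replicate numbers were checked for pairing between groups. Alternatives were other pseudocounts, filters, scalings and variance settings, the compared groups alone, each library left out, the replicate number as a block, and day 14 replicate 1 alone, chosen after seeing the data, where that library's spread is taken from the other groups.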

Additional observations from a re-analysis of the deposited data

Results flagged for a closer look

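For 9 of the 10 factors the effect of bleomycin at day 30 differed from its effect at day 14, by the direct limma test of day 30 against day 14, in which sham cancels. The log2 difference (day 30 minus day 14) was -1.13 for Runx1, -0.60 for Runx2, -1.72 for Runx3 in the fit with no filter, and -1.12 for Snai1. It was 1.15 for Twist1, 1.79 for Twist2, 1.03 for Prrx1, 0.41 for Zeb2 and 0.17 for Zeb1. The call was lost in 12 of 18 alternatives for Runx2 (adjusted p = 0.0489 in the main fit), 4 of 18 for Zeb1, 2 of 18 for Zeb2 and 1 of 18 for Twist1. Those for Zeb1 include the RPKM as deposited (0.049) and leaving out day 14 replicate 3 (0.14). The same contrast sets female against male mice, and endothelial marker sums of 18.7 to 21.3 RPKM against 354 to 677, and the part of either was not tested. Of all genes tested, 59.6% were called in this contrast, and 30.6% in the fit with no filter that gave Runx3. No library of any factor stood out of its group by Dixon's test in the groups of 4 or more libraries, which here is bleomycin day 30 alone.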

How the results depend on the processing

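Of 930 recomputed values of the factors and comparisons, 826 kept their direction and side of the threshold, 76 lost a call, 10 gained one and 18 changed sign, and 29 of 60 factor results held throughout. Runx1, Runx2, Runx3, Twist2, Snai1, Zeb1 and Prrx1 kept their calls at day 14 against sham in every alternative, and so did Runx1, Snai2, Zeb1 and Prrx1 after pneumonectomy.

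Counts of called genes moved by over 1.5 times in 2 comparisons. For pneumonectomy against sham the count was 3497 with the compared groups alone, in place of 5430, and 3326 to 5085 when 1 library was left out (3326 without sham replicate 2). For day 30 against sham it was 360 with the replicate block, in place of 3731, and 1812 to 4085 when 1 library was left out (1812 without sham replicate 2, 2357 without sham replicate 1). No label says that the replicate numbers pair the libraries. Same-numbered day 14 and day 30 libraries deviated from their group means with correlations of 0.01, -0.04 and 0.14. Those with unlike numbers gave -0.22 to 0.20, and so few libraries can neither show nor exclude pairing. With the block, Runx2 (-0.83), Zeb1 (0.19) and Zeb2 (0.32) lost their call between days 30 and 14, Twist2 (-0.60), Snai1 (0.72) and Prrx1 (-0.29) theirs at day 30 against sham, and Twist1 gained one at day 14 (-0.67). No block could be fitted for pneumonectomy, whose columns carry no numbers.

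Signs changed as follows, none of them called in the alternative. At day 30 against sham, Zeb2 was 0.064 as deposited and -0.17 to 0.066 with 1 library left out (0.066 without sham replicate 2), and Runx3 was 0.0088 with the replicate block and -0.37 to 0.26 with 1 library left out (0.26 without sham replicate 1). After pneumonectomy against sham, Twist1 was -0.19 as deposited, -0.10 with upper-quartile scaling and -0.25 to 0.39 with 1 library left out (below 0 without library A or C or sham replicate 1). There Snai1 was -0.031 as deposited and -0.12 to 0.50 with 1 library left out (-0.12 without sham replicate 1), and Runx3 was -0.13 to 0.51 (-0.13 without sham replicate 2). Against pneumonectomy, day 14 gave 0.063 for Zeb1 and 0.19 for Zeb2 as deposited. Day 30 gave 0.11 for Zeb1 as deposited, and for Twist2 0.19 as deposited, 0.0057 with upper-quartile scaling and -0.35 to 0.074 with 1 library left out (0.074 without library A). The cause was not tested. Pseudocounts set the size of changes of low genes, so that Runx1 at day 14 against sham was 2.31 with a pseudocount of 1 and 3.97 with 0.01. Depth limits Runx3 most, at 11 reads in a sham library.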

Other observations

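Within the day 30 group, some factors varied together, a pattern noticed after the values were seen and given without a test. Replicate 1 had the lowest Runx1, Runx2, Snai1, Snai2 and Zeb2 and replicate 4 the highest, and all 5 genes placed the 5 libraries in the same order, as did 446 of the 12938 genes (3.45%). Twist2 was highest in replicate 1 (3.25 RPKM) and lowest in replicate 4 (1.77 RPKM). Replicate 1 also had the lowest macrophage marker sum of the group, 258 RPKM, whereas the highest, 815 RPKM, was in replicate 3.

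Other cell markers also moved between the groups. Mesothelial markers (6 genes) summed to 4.35 to 21.0 RPKM at day 30, 2.63 to 4.86 at day 14 after bleomycin, 12.5 to 43.5 after pneumonectomy and 2.02 to 3.13 in sham. Pericyte and smooth muscle markers (11 genes) summed to 154 to 192, 102 to 137, 302 to 431 and 182 to 325 RPKM in the same order, and granulocyte markers (7 genes) to 23.2 to 65.8, 28.8 to 40.0, 0.925 to 6.20 and 0.947 to 14.3 RPKM. Cartilage and bone markers (7 of 8 in the table) summed to 1.48 to 21.9 RPKM after pneumonectomy and to 0.183 to 2.43 RPKM in all other libraries, while Runx2 was lower after pneumonectomy than at either day after bleomycin.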
